A study of Mus musculus with 54 samples.

Results

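The RNA of mouse T helper 17 (Th17) cells that had divided at least 3 times was compared between linezolid and the vehicle DMSO. The samples were taken by their titles: all linezolid and DMSO samples of proliferation cycle 4, the sorted fraction with 3 or more divisions. This gave 4 of the 18 samples of the series, 2 with linezolid and 2 with DMSO, and 12 of its 54 sequenced runs. The other 14 were cells treated with Arg C and sorted at cycles 2, 3 and 4 (6 samples) and linezolid and DMSO cells at cycles 2 and 3 (8 samples), of 1 and 2 divisions. Naive CD4+ T cells depleted of CD25+ cells, taken from the spleens and lymph nodes of C57BL/6 mice, were activated through CD3 and CD28 and cultured with TGF-β1, IL-6 and IL-1β, with antibodies against IFN-γ and IL-4. Linezolid was present at 100 µM for 96 h, and live CD4+ cells were sorted on day 4 by dilution of a violet division dye. DMSO cells went through the same culture, stimulation and sort. Cycle 4 is an open class of the sort, so the number of divisions beyond 3 was not measured, and the labels do not give the age, sex or number of the mice.

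Each group held 1 sample from each of 2 experiments, and every sample was sequenced as 3 technical replicates, which were averaged. Values are RPKM, read numbers scaled by the length of the gene and the size of the library, and the 4 samples held 27.7 to 33.2 M reads each. Changes are differences of log2(RPKM + 1), which are smaller than those of log2 RPKM where levels are low, with the standard error (SE) of a limma fit to all 18 samples. A gene was called when its p adjusted over all 11004 genes tested was under 0.05. The p-values measure the spread between 2 experiments, whose animals the labels do not describe. In bulk RNA of a sorted fraction, fewer cells of a type and less RNA per cell cannot be told apart.

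Linezolid is an oxazolidinone antibiotic that binds the bacterial ribosome, and it also inhibits the ribosome of mitochondria, which makes the core subunits of the respiratory chain. Th17 cells are helper T cells that secrete interleukin 17, and their differentiation depends on high glycolysis driven in part by the hypoxia-inducible factor HIF-1. When mitochondria are impaired, mammalian cells are known to switch on the integrated stress response, whose transcription factor ATF4 raises genes for amino acid synthesis and uptake.

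With linezolid, 1541 genes were called higher (14% of those tested) and 4876 lower (44.3%). Of the 6417 called genes (58.3%), 6406 had the same sign in both experiments. Large changes were mostly falls: 861 called genes (7.82%) were at least 2-fold lower and 98 (0.891%) at least 2-fold higher on the RPKM + 1 scale. The median gene stood at -0.23 on the log2 scale, at -0.35 in experiment 1 and -0.11 in experiment 2. Genes of the cytosolic ribosome took 18.5% and 19.1% of the reads in genes in the DMSO samples and 27.8% and 21.2% in the linezolid samples of experiments 1 and 2. With samples scaled without ribosomal-protein and mitochondrial genes, the median gene stood at -0.15. The part of ribosomal-protein genes alone in the shift was not tested. When each sample was rescaled by its median ratio to all samples, the median gene stood at 0.01, with 3126 genes called higher (28.4%) and 3119 lower (28.3%). All 1541 genes called higher and 3119 of the 4876 called lower were called in the same direction on both scales, and none was called in opposite directions. Counts of list members are therefore given on both scales, and are to be read beside these shares of all genes tested.

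**Figure D1:**
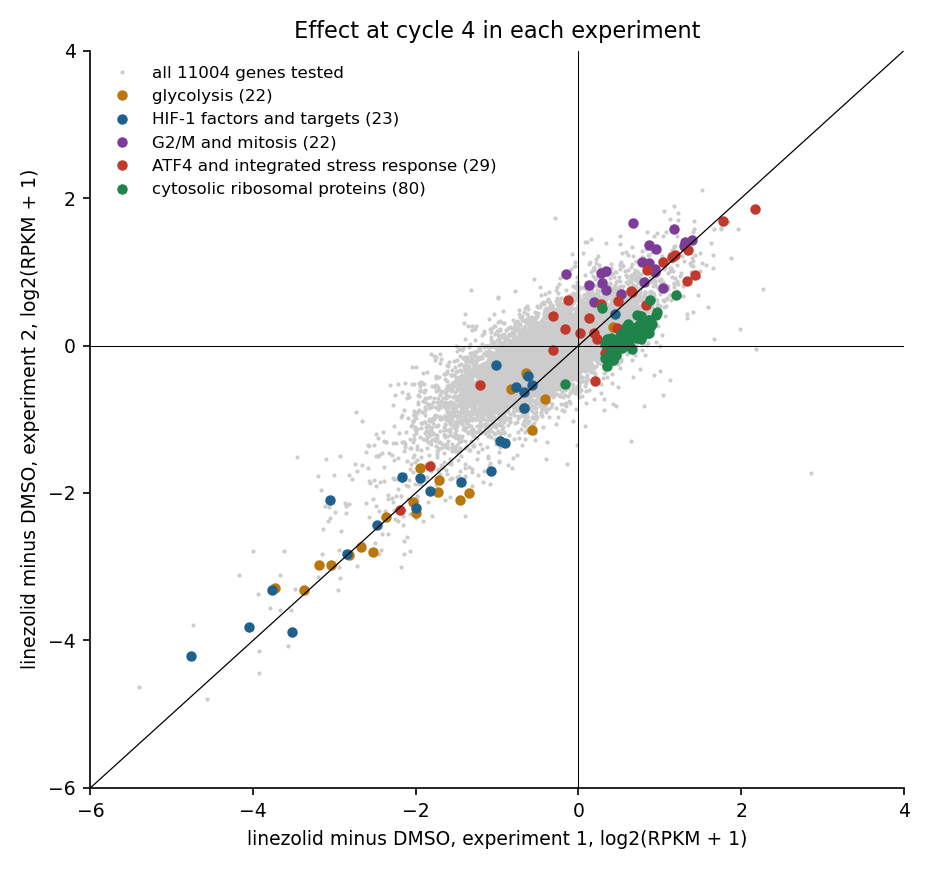
Linezolid minus DMSO at cycle 4 in log2(RPKM + 1), experiment 1 on the horizontal axis and experiment 2 on the vertical axis, for all 11004 genes tested (grey) and 5 gene lists (coloured), with the line of equal change. Most glycolysis and HIF-1 genes lie far below 0 in both experiments, G2/M genes mostly lie above the line, and cytosolic ribosomal-protein genes lie further above 0 in experiment 1 than in experiment 2.

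Genes of the hypoxia response stood among the largest falls. HIF-1 binds the core ACGTG, which reads CACGT on the other strand, and the 250 bases before the start of the HIF-1 genes with the largest falls are shown because all 3 hold it. The windows are from RefSeq (GRCm38.p6), 5′ to 3′ along the gene, with matches to this string in capitals. Variants of the string were not searched.
Bnip3 (chr7:138909507-138909756, minus strand): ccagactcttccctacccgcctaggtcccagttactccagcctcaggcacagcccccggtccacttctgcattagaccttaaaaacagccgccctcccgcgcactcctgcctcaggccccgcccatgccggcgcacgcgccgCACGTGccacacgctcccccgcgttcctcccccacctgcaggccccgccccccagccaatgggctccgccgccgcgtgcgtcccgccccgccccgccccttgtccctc
Egln3 (chr12:54203875-54204124, minus strand): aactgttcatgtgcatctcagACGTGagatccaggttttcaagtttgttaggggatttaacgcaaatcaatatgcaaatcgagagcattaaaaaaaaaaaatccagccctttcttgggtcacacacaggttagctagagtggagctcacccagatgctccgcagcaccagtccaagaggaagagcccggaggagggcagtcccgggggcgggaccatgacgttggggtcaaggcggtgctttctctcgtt
P4ha2 (chr11:54100674-54100923, plus strand): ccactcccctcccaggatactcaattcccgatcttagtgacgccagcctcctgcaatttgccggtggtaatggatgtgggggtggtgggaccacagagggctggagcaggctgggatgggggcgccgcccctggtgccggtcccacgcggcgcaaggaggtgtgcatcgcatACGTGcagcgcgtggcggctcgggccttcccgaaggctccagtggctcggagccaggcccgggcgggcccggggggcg
The Bnip3 window holds 2 overlapping matches on opposite strands, which begin 108 and 107 bases before the start. The match of Egln3 begins 229 bases before the start and that of P4ha2 78 bases before it. The core is short and common: 2210 of 8415 tested genes with a window (26.3%) hold it, and so do 12 of the 16 genes of the HIF-1 list that were called lower and have a window. The core also stands before 11 of the 20 glycolysis genes called lower that have a window. Each list has only 1 gene called higher with a window, which lacks the core, and 1 gene is too few for a comparison. Genes that rose can hold the core too, as all 3 windows of ATF4 genes printed below do. A match is a string of letters and not a measured binding site.

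Of 23 tested HIF-1 factors and targets, 21 were called lower and 1 higher, with a median change of -1.65. On the median-ratio scale 19 were lower and 2 higher. Bnip3, a receptor that marks mitochondria for autophagy, stood at 141 and 135 RPKM in the DMSO samples of experiments 1 and 2 and at 4.24 and 6.37 RPKM with linezolid. The groups were far apart, with a log2 change of -4.48 ± 0.18 (limma adjusted p = 2.9e-09). Egln3, a prolyl hydroxylase that marks HIF for degradation and is itself a HIF target, went from 153 and 177 RPKM to 8.25 and 11.6 RPKM (-3.93 ± 0.13, adjusted p = 7.6e-10). P4ha2, a collagen prolyl hydroxylase, went from 26.6 and 27.8 RPKM to 1.4 and 0.958 RPKM (-3.70 ± 0.13, adjusted p = 1.2e-09). In all 3 genes both linezolid samples lay far below both DMSO samples.

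Further HIF-1 targets fell by smaller steps. Ero1l, an oxidase of the endoplasmic reticulum, had 117 and 151 RPKM with DMSO and 15.4 and 20.5 RPKM with linezolid (-2.84 ± 0.11). Pdk1, the kinase that keeps pyruvate out of mitochondria, went from 19.6 and 16.9 to 1.47 and 3.18 RPKM (-2.58 ± 0.21). Vegfa, the vascular growth factor, went from 12.9 and 15.6 to 6.08 and 5.78 RPKM (-1.13 ± 0.12), and Ddit4, an inhibitor of mTORC1, from 296 and 301 to 186 and 194 RPKM (-0.65 ± 0.11). The factor Hif1a itself went from 186 and 143 to 91.9 and 119 RPKM (-0.64 ± 0.20, adjusted p = 0.018), and was not called on the median-ratio scale (-0.32, adjusted p = 0.081). Its partner Arnt was the member called higher, from 18.8 and 20.0 to 26.1 and 27.2 RPKM (0.44 ± 0.08). Epas1, which encodes HIF-2α, had 1.13 and 1.19 RPKM and 2.28 and 1.2 RPKM (0.31 ± 0.15, adjusted p = 0.087) and was called higher only on the median-ratio scale. Nrn1 of this list also stood among the largest falls (-3.54 ± 0.24).

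Glycolysis fell at nearly every step from glucose entry to lactate export. Of 22 genes tested, 21 were called lower and 1 higher (20 and 1 on the median-ratio scale), with a median change of -1.83, and in all 22 the RPKM values of the 2 groups did not overlap, against 71.1% of all genes tested. The glucose transporter Slc2a1 stood at 88.4 and 98.4 RPKM with DMSO and 14.5 and 13.2 RPKM with linezolid (-2.67 ± 0.11), and the transporter Slc2a3 at 136 and 136 RPKM and 12.2 and 12.7 RPKM (-3.35 ± 0.22). Hexokinase 2 (Hk2), the first enzyme of the pathway, went from 16.5 and 17.8 to 1.13 and 1.4 RPKM (-3.01 ± 0.17). These entry genes were lower by more than 5-fold in RPKM in each experiment.

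The committed and later steps fell too. Pfkl, a phosphofructokinase subunit, went from 36 and 30.4 to 1.79 and 2.22 RPKM (-3.51 ± 0.18). Eno1, the main enolase, stood at 993 and 1050.3 RPKM with DMSO and at 139.5 and 146 RPKM with linezolid (-2.83 ± 0.10, limma adjusted p = 8.5e-10). Tpi1, triosephosphate isomerase, went from 650.0 and 678 to 101 and 101 RPKM (-2.70 ± 0.08), and Pkm, pyruvate kinase, from 1213 and 1303 to 303 and 269.5 RPKM (-2.13 ± 0.08). Ldha, which makes lactate, went from 868 and 912 to 264 and 257 RPKM (-1.77 ± 0.09), and the lactate exporter Slc16a3 from 91.8 and 87.3 to 9.21 and 10.2 RPKM (-3.08 ± 0.18).

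Isoforms of 1 step covered a range of changes. Hk1 had 53.4 and 63.2 RPKM and 39.9 and 37.7 RPKM (-0.57 ± 0.10) and lost its call on the median-ratio scale (-0.26, adjusted p = 0.096), where the change of Hk2 was -2.71. Among phosphofructokinase subunits, Pfkm went from 11.5 and 12.2 to 6.05 and 7.76 RPKM (-0.71 ± 0.10) and Pfkp from 41.2 and 46.7 to 9.98 and 14.1 RPKM (-1.80 ± 0.14). The muscle enolase Eno3, at 1.35 and 1.24 RPKM with DMSO and 2.15 and 1.67 RPKM with linezolid, was the member called higher (0.34 ± 0.12). The differences between isoforms were not tested.

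**Figure D2:**
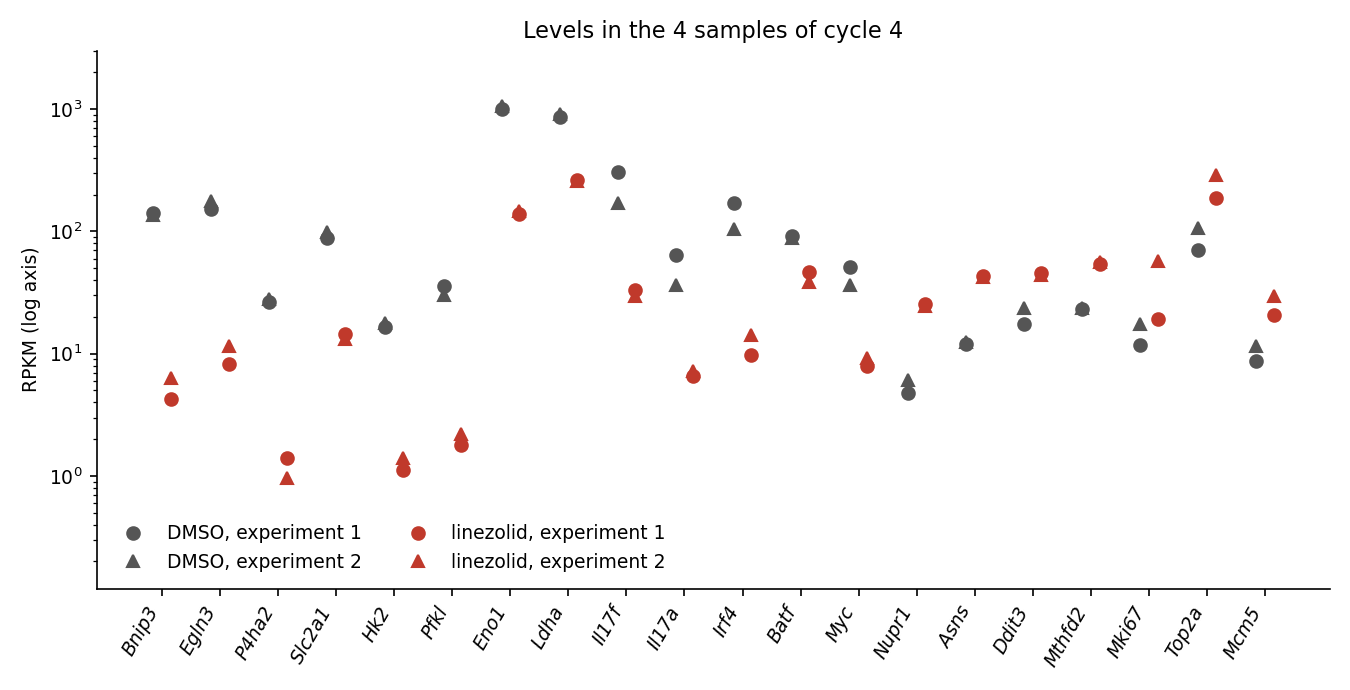
RPKM (log axis) of 20 genes in the 4 samples of cycle 4, with circles for experiment 1, triangles for experiment 2, grey for DMSO and red for linezolid. HIF-1, glycolysis and Th17 genes lie lower with linezolid in both experiments, and Nupr1, Asns, Ddit3, Mthfd2 and the cell cycle genes lie higher.

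Th17 cytokines fell with them. Of 10 tested cytokines and effectors, 9 were called lower and 1 higher on both scales, with a median of -2.28. Il17f stood at 304 and 171 RPKM with DMSO and 33.5 and 29.5 RPKM with linezolid (-2.82 ± 0.16, limma adjusted p = 8.4e-08), and Il17a at 64.5 and 36.4 RPKM and 6.55 and 7.28 RPKM (-2.65 ± 0.20, adjusted p = 6.1e-07). Both DMSO values were higher in experiment 1 than in experiment 2, while the linezolid values of the experiments were close. Tgfb3, a cytokine that Th17 cells make themselves, fell most, from 15.2 and 15.3 to 0.272 and 0.362 RPKM (-3.63 ± 0.12). Il21 went from 34.6 and 32.5 to 4.96 and 5.67 RPKM (-2.45 ± 0.13), and Il10, the regulatory cytokine, from 9.18 and 6.31 to 1.24 and 0.773 RPKM (-2.11 ± 0.14). Il9 was the member called higher, at 2.3 and 1.22 RPKM and 3.57 and 2.64 RPKM (0.59 ± 0.21).

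Of 19 tested receptors and transcription factors of the Th17 programme, 16 were called lower and none higher (limma), with a median of -0.95. On the median-ratio scale 14 were lower and 1 was higher. The pioneer factors Irf4 and Batf went from 171 and 104 to 9.81 and 14.3 RPKM (-3.39 ± 0.32) and from 92.5 and 89.1 to 46.2 and 38.9 RPKM (-1.08 ± 0.08). Stat3, which carries the IL-6 signal, went from 151 and 149 to 96.8 and 75.9 RPKM (-0.80 ± 0.09). Rora, a nuclear receptor, had 9.52 and 7.25 RPKM and 7.49 and 7.02 RPKM and was not called (-0.17 ± 0.20, adjusted p = 0.47). The receptors Ccr6 and Il1r1 were low in DMSO cells, at 2.97 and 1.41 RPKM and 3.16 and 2.14 RPKM, and lower with linezolid at 0.118 and 0.121 RPKM and 0.237 and 0.274 RPKM (-1.47 ± 0.16 and -1.52 ± 0.11).

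Of 12 tested genes of other helper fates, 8 were called lower and 1 higher, with a median of -0.76. On the median-ratio scale 7 were lower and 3 higher. Over all genes tested, 44.3% were called lower and 14% higher (28.3% and 28.4% on the median-ratio scale). Il2ra, the high-affinity IL-2 receptor chain, went from 216 and 180.2 to 56.6 and 73.9 RPKM (-1.60 ± 0.21), and the inhibitory receptor Ctla4 from 157 and 141 to 38.2 and 63.6 RPKM (-1.57 ± 0.19). Foxp3, the factor of regulatory T cells, stayed under 0.5 RPKM in all 4 samples, at 0.323 and 0.463 RPKM and 0.4 and 0.412 RPKM (0.01 ± 0.13, adjusted p = 0.93). Tbx21, the Th1 factor, was the member called higher, also under 1 RPKM in all 4 samples (0.37 ± 0.13). Ifng did not pass the filter on low values, and it was listed at 0.0248 and 0 RPKM with DMSO and at 0 in both linezolid samples.

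Most surface receptors and homing genes were called lower. None of 17 tested chemokine receptors and integrins was called higher and 16 were called lower (limma), with a median of -0.88, and 10 of 17 were lower on the median-ratio scale. Itga7, a laminin-binding integrin chain, went from 41.8 and 43.3 to 0.807 and 0.592 RPKM (-4.68 ± 0.11, adjusted p = 1.7e-10). Ccr4 went from 21.8 and 19.9 to 2.79 and 5.58 RPKM (-2.13 ± 0.24). Ccr7, the receptor for lymph node entry, had 323 and 301 RPKM and 134 and 212 RPKM (-0.88 ± 0.29) and was not called on the median-ratio scale (-0.57, adjusted p = 0.06). The costimulatory receptor Tnfrsf9 (4-1BB) went from 153 and 147 to 4.79 and 9.71 RPKM (-4.26 ± 0.29), Tnfrsf4 (OX40) from 133 and 154 to 59.5 and 70.4 RPKM (-1.13 ± 0.10) and Icos from 49.5 and 71.9 to 12.1 and 29.8 RPKM (-1.59 ± 0.22).

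Members of the receptor complex were mostly within reach of the shift of the median gene. Of 17 genes of T cell receptor signalling and costimulation, 9 were called lower and 1 higher, with a median of -0.30, and on the median-ratio scale 3 were lower and 3 higher. The shares over all genes tested were 44.3% lower and 14% higher (28.3% and 28.4% on the median-ratio scale). Cd3e had 149 and 144 RPKM with DMSO and 123 and 136 RPKM with linezolid (-0.18 ± 0.08, adjusted p = 0.084), and Cd4 had 239 and 241 RPKM and 265 and 260.4 RPKM (0.13 ± 0.07, adjusted p = 0.1). Zap70, the proximal kinase, was called lower (-0.44 ± 0.06) but not on the median-ratio scale (-0.13, adjusted p = 0.34). Of 14 genes of naive and memory cells, 9 were called lower and 2 higher, with 5 lower and 3 higher on the median-ratio scale. Cd27, a costimulatory receptor, went from 42 and 36.4 to 10.9 and 16.6 RPKM (-1.47 ± 0.19), while Tcf7, the factor of stem-like T cells, was called higher, from 303 and 247 to 356 and 377 RPKM (0.42 ± 0.09).

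The largest fall of any gene named by the rule was that of Ly6g, a surface protein known as a marker of neutrophils, from a family of similar genes. Ly6g had 105 and 42.2 RPKM with DMSO and 1.52 and 0.734 RPKM with linezolid (-5.02 ± 0.24, adjusted p = 1.5e-08), so the DMSO samples of the experiments differed by more than 2-fold from each other and both lay far above the linezolid samples. Of 8 erythroid and granulocyte markers, 7 were at 0 in all 4 samples, S100a8, S100a9, Elane and Mpo among them, and the list summed to at most 0.13 RPKM in any sample. The 8 T cell markers summed to 1565 and 1481 RPKM with DMSO and to 1246 and 1384 RPKM with linezolid, with Trac and Trbc2 listed at 0. The 8 CD8 T and NK cell markers summed to 26.6 and 21.6 RPKM with DMSO and 9.3 and 12.2 RPKM with linezolid, with Klrb1c and Ncr1 at 0. Of 8 B cell markers, 7 stayed under 0.5 RPKM in all 4 samples (sums of 0.44 to 2.32), and of 11 myeloid and dendritic markers 10 did (sums of 9.73 to 14.7 RPKM, nearly all Cd68). The CD8 T and NK list was thus lower with linezolid, with Klrd1 the largest member in the DMSO samples, and the part of other cells in the results was not tested. Other large falls were in Mgarp (-4.03 ± 0.11), Serpinf1 (-4.18 ± 0.15), Selenbp1 (-3.83 ± 0.15), the class I gene H2-Q10 (-3.68 ± 0.15), galactokinase Galk1 (-3.66 ± 0.20), Gatm, an enzyme of creatine synthesis (-3.64 ± 0.25), and Dntt, the polymerase that adds bases to receptor joints (-3.56 ± 0.11).

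Factors induced by activation split into falls and rises. Of 16 tested, 10 were called lower and 4 higher (8 and 4 on the median-ratio scale). Myc, which drives growth of activated T cells, stood at 51.5 and 36.1 RPKM with DMSO and 7.86 and 9.17 RPKM with linezolid (-2.22 ± 0.22, limma adjusted p = 7.8e-06). Junb, a partner of Batf, went from 282 and 276 to 79.6 and 91.9 RPKM (-1.70 ± 0.10), and Irf8 from 27 and 28.3 to 8.02 and 8.13 RPKM (-1.66 ± 0.09). The orphan nuclear receptors of the NR4A family, immediate early genes of receptor signalling, were called higher, all 3 of them. Nr4a1 had 21.6 and 19.6 RPKM with DMSO and 64 and 43.7 RPKM with linezolid (1.32 ± 0.13, adjusted p = 7.8e-06), and Nr4a3 6.36 and 6.03 RPKM and 20.1 and 29.4 RPKM (1.82 ± 0.30, adjusted p = 0.00029). Nr4a2 was lower in level, at 1.17 and 1.53 RPKM and 4.74 and 4.63 RPKM (1.28 ± 0.14).

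Genes that build ribosomes and genes of the ribosome itself moved in opposite directions. Of 20 tested genes of ribosome biogenesis, which act in the nucleolus, 14 were called lower and 2 higher, with a median of -0.72 (12 and 5 on the median-ratio scale). Nop16 went from 10.8 and 8.52 to 3.5 and 3.31 RPKM (-1.27 ± 0.15) and Pes1 from 22.1 and 22.5 to 14.3 and 12.2 RPKM (-0.71 ± 0.09). The members called higher were the abundant nucleolar proteins Npm1 (0.37 ± 0.11) and Ncl (0.31 ± 0.10). Of 80 cytosolic ribosomal-protein genes, 50 were called higher and 1 lower, with a median of 0.39 (71 higher and none lower on the median-ratio scale, limma). Reads of these genes may be shared with near-identical pseudogenes, so single values are uncertain. The list median was 0.60 in experiment 1 and 0.12 in experiment 2. Rpl8 had 2034 and 1996 RPKM with DMSO and 3477 and 2639 RPKM with linezolid (0.59 ± 0.10). Fau was the member called lower (-0.35 ± 0.09), and it was not called on the median-ratio scale (-0.03, adjusted p = 0.9).

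Targets of ATF4 stood among the largest rises. ATF4 binds with C/EBP factors to the element TGATGNAA, which reads TTNCATCA on the other strand, and the same 250-base windows are shown for the 3 genes of the ATF4 list that rose most, since each holds 1 match, again in capitals.
Nupr1 (chr7:126625471-126625720, minus strand): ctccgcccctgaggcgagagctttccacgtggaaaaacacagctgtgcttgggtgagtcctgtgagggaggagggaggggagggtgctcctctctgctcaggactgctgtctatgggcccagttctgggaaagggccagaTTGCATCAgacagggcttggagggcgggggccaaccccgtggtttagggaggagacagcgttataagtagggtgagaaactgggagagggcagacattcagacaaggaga
Asns (chr6:7693210-7693459, minus strand): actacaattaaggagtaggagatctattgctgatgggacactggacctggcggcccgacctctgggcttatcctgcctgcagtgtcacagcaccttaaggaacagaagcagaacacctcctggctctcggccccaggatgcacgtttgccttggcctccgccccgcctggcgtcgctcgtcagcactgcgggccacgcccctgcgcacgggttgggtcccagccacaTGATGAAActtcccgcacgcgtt
Aars (chr8:111033592-111033841, plus strand): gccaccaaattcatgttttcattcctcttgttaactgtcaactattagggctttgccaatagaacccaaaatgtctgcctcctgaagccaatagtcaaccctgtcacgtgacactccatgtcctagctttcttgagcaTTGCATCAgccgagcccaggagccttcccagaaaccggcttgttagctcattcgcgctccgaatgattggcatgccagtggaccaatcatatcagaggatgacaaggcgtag
The matches begin 110, 23 and 112 bases before the start. Each of these windows also holds the HIF-1 core, ACGTG or CACGT, left in small letters. This longer element was rare, in 192 of the 8415 windows (2.28%), and it stands before 5 of the 13 listed ATF4 genes that were called higher and have a window and before 1 of the 2 called lower that have one.

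Of 29 tested genes of this list, 15 were called higher and 3 lower, with a median of 0.36 (20 and 3 on the median-ratio scale). Nupr1, a stress-induced nuclear protein, stood at 4.81 and 6.09 RPKM with DMSO and 25.3 and 24.6 RPKM with linezolid (2.02 ± 0.16, limma adjusted p = 1.4e-06). Asns, asparagine synthetase, went from 11.9 and 12.4 to 43.4 and 42.1 RPKM (1.73 ± 0.09, adjusted p = 4.5e-08), and Aars, alanyl-tRNA synthetase, from 19 and 20.4 to 50.1 and 51.4 RPKM (1.32 ± 0.09, adjusted p = 2e-07). In each of these genes both linezolid samples lay more than 2-fold above both DMSO samples and close to each other.

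Further members rose by about 2-fold. The stress factor Ddit3 (CHOP) went from 17.6 and 23.4 to 45.8 and 43.9 RPKM (1.10 ± 0.10). Mthfd2, the mitochondrial folate enzyme, went from 23.3 and 23.6 to 54.3 and 56.4 RPKM (1.20 ± 0.06), and Phgdh, the first enzyme of serine synthesis, from 28.4 and 33.4 to 64.4 and 78.1 RPKM (1.18 ± 0.09). The amino acid transporter chains Slc3a2 and Slc7a5, which pair with each other, went from 19.5 and 21.7 to 54.1 and 43.3 RPKM (1.20 ± 0.12) and from 19.3 and 19.4 to 40.8 and 43.7 RPKM (1.09 ± 0.11). The message of Atf4 itself had 208 and 241 RPKM and 260.4 and 225 RPKM, with overlapping groups (0.11 ± 0.11, adjusted p = 0.37). Its relatives Atf3 and Atf5 and the feedback inhibitor Trib3 were not called either (0.13 ± 0.15, 0.16 ± 0.10 and 0.04 ± 0.22). The members called lower were Vldlr (-2.21 ± 0.12), Stc2 (-1.73 ± 0.11) and Slc1a5 (-0.87 ± 0.18).

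Neighbouring pathways moved in part with these. Of 20 cytosolic tRNA synthetases, which charge tRNAs for translation, 11 were called higher and 5 lower (13 and 4 on the median-ratio scale). Aars and Sars are also members of the ATF4 list, so the counts of the lists overlap. Gars went from 78.9 and 88.3 to 155 and 136 RPKM (0.79 ± 0.10) and Sars from 82.2 and 91.9 to 147 and 135 RPKM (0.69 ± 0.09), while Dars went from 60.5 and 57.6 to 20.7 and 26.5 RPKM (-1.30 ± 0.12). Of 15 genes of one-carbon and nucleotide synthesis, 9 were called lower and 2 higher, with a median of -0.47 (7 and 4 on the median-ratio scale). Mthfd1l, which releases formate from mitochondria, went from 32.5 and 35.6 to 11.8 and 11 RPKM (-1.50 ± 0.09), and Cad, which starts pyrimidine synthesis, from 5.9 and 5.63 to 2.3 and 3.41 RPKM (-0.83 ± 0.14). Impdh2, of guanine nucleotide synthesis, was called higher, from 98.2 and 113 to 242 and 197 RPKM (1.05 ± 0.11).

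**Figure D3:**
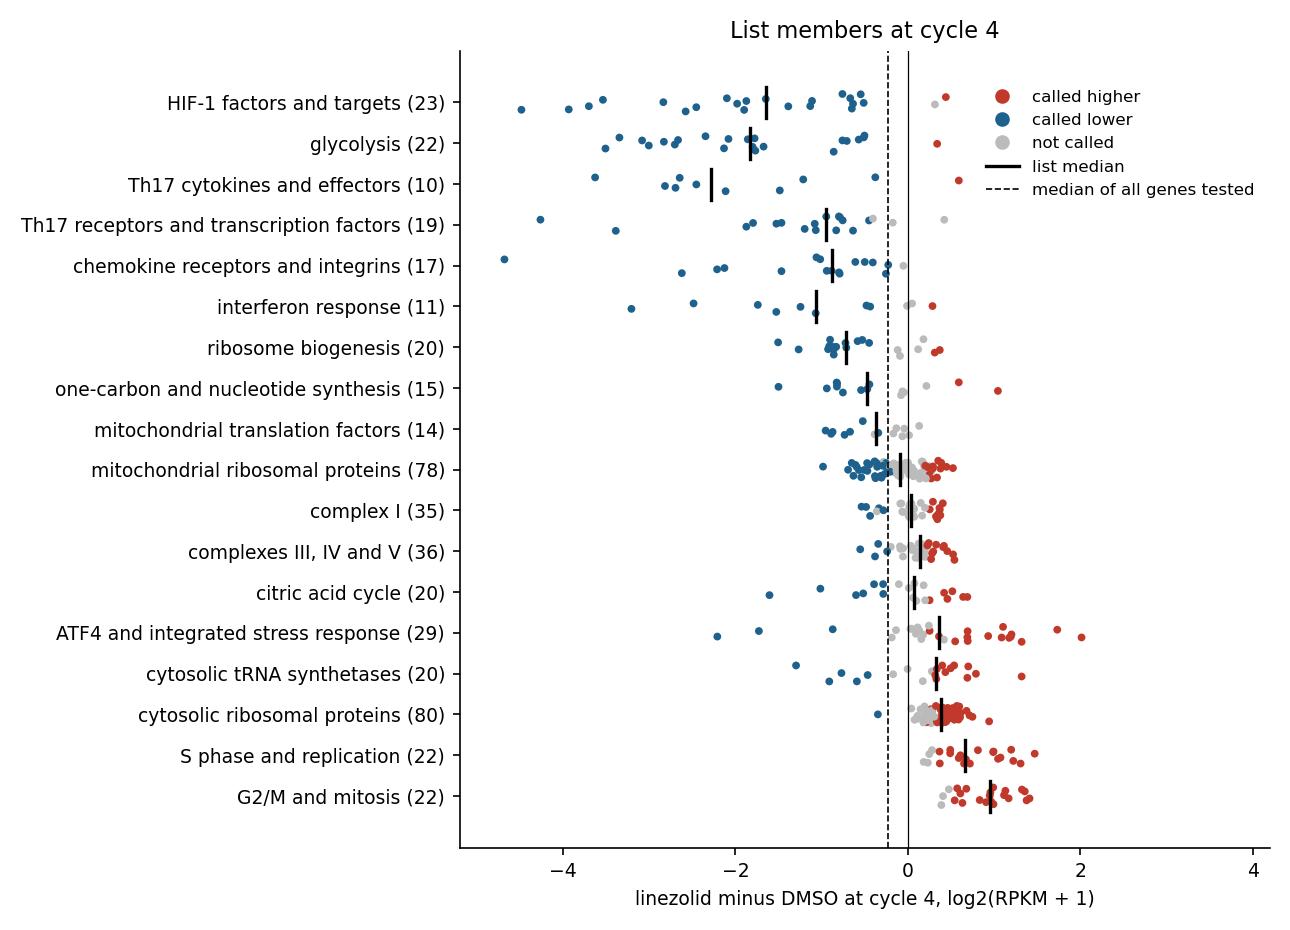
Linezolid minus DMSO at cycle 4 in log2(RPKM + 1) for the tested members of 18 gene lists (number in brackets), called higher in red, called lower in blue and not called in grey, with list medians (black bars) and the median of all 11004 genes tested (dashed line, -0.23). The HIF-1, glycolysis and cytokine lists lie furthest to the left and the S phase and G2/M lists furthest to the right.

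Mitochondrial genes showed no common direction. The mitochondrial ribosomal RNAs were listed as Rnr1 (small subunit) and Rnr2 (large subunit). Rnr2 went from 673 and 608 to 160.0 and 253 RPKM (-1.66 ± 0.35, limma adjusted p = 0.0017). Rnr1 went from 881 and 989.7 to 561 and 621 RPKM (-0.66 ± 0.22, limma adjusted p = 0.023). Its call was lost on the median-ratio scale (-0.34, adjusted p = 0.3) and with upper-quartile scaling (-0.48, adjusted p = 0.13). It was also lost with scaling without ribosomal-protein and mitochondrial genes (-0.55, adjusted p = 0.064) and with no filter on low values (adjusted p = 0.064). The change of Rnr1 was -0.46 without the DMSO sample of experiment 2 and -0.47 without the linezolid sample of experiment 1. The 13 protein genes of the mitochondrial genome were listed at 0 in all 18 samples, so their levels are not described here.

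Of 78 nuclear genes of the mitochondrial ribosome, 25 were called lower and 13 higher, with a median of -0.09, and the balance turned on the median-ratio scale, with 8 lower and 33 higher. Mrpl4 went from 35 and 39.6 to 24.1 and 23.3 RPKM (-0.63 ± 0.08) and Mrpl18 from 34 and 38 to 51 and 53.3 RPKM (0.52 ± 0.07). Of 14 mitochondrial translation factors, 7 were called lower and none higher (6 and 1 on the median-ratio scale, limma). Among all genes tested, 44.3% were called lower and 14% higher (28.3% and 28.4% on the median-ratio scale). Tsfm, the exchange factor of elongation factor Tu, went from 10.1 and 9.69 to 4.7 and 5.06 RPKM (-0.89 ± 0.09), whereas the elongation factor Gfm1 had 12.6 and 12.2 RPKM and 11.8 and 11.9 RPKM and was not called (-0.06 ± 0.09, adjusted p = 0.57). Of 14 genes that keep mitochondrial DNA and rRNA, 8 were called lower and 2 higher (5 and 3). Among these, the rRNA methyltransferases Mrm1 and Nsun4 fell (-1.21 ± 0.11 and -0.87 ± 0.15), and Tfb1m, which methylates the small subunit rRNA, rose from 2.88 and 3.47 to 5.15 and 7.55 RPKM (0.80 ± 0.13).

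The nuclear genes of the respiratory chain had medians near 0 in RPKM, and medians above that of all genes (0.01) on the median-ratio scale. Of 35 complex I genes, 9 were called higher and 5 lower with a median of 0.04. On the median-ratio scale 23 were higher and none lower (limma), with a median of 0.33. Of 36 genes of complexes III, IV and V, 11 were called higher and 4 lower with a median of 0.14. On the median-ratio scale 25 were higher and 1 lower, with a median of 0.46. Cox5a, a cytochrome c oxidase subunit, went from 199 and 216 to 318 and 287 RPKM (0.54 ± 0.07), and the complex I subunit Ndufv1 from 23.2 and 21.3 to 30.2 and 28.2 RPKM (0.38 ± 0.07). In the citric acid cycle 7 of 20 were called lower and 6 higher (3 and 13). Citrate synthase, Cs, went from 106 and 121 to 189 and 178 RPKM (0.69 ± 0.09), while pyruvate carboxylase, Pcx, went from 8.18 and 8.96 to 1.76 and 2.59 RPKM (-1.61 ± 0.12).

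Mitochondrial chaperones and proteases held calls in both directions. Of 16 tested, 6 were called lower and 4 higher (4 and 8 on the median-ratio scale), against 44.3% and 14% of all genes tested (28.3% and 28.4%). The chaperonin genes Hspd1 (HSP60) and Hspe1 (HSP10) went from 60.2 and 54.9 to 89.6 and 83.5 RPKM (0.58 ± 0.07) and from 223 and 233 to 440.1 and 402 RPKM (0.88 ± 0.08). The inner membrane protease Afg3l2 went from 50.0 and 59.7 to 13.6 and 14.3 RPKM (-1.90 ± 0.10) and the matrix protease Lonp1 from 27.5 and 35.7 to 10.7 and 14.7 RPKM (-1.25 ± 0.13). In all 4 genes the groups did not overlap, which also held for 71.1% of all genes tested. The proteases Yme1l1, Spg7 and Clpx were not called (-0.04 ± 0.14, 0.04 ± 0.10 and -0.12 ± 0.08).

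Cell cycle genes were higher with linezolid in cells of the same division class. Of 22 genes of S phase and replication, 18 were called higher and none lower (limma), with a median of 0.66, and of 22 genes of G2/M and mitosis 19 were called higher and none lower, with a median of 0.95. All 22 members of each list were called higher on the median-ratio scale. Ligase 1 (Lig1), which seals newly made DNA, went from 7.9 and 11.7 to 30.8 and 39.6 RPKM (1.76 ± 0.16), the helicase subunit Mcm5 from 8.74 and 11.5 to 20.7 and 29.8 RPKM (1.22 ± 0.16) and the clamp loader subunit Rfc4 from 9.6 and 11 to 27.1 and 33.9 RPKM (1.47 ± 0.10). Topoisomerase Top2a went from 70.4 and 106 to 186 and 289 RPKM (1.41 ± 0.21), Kif2c, a motor of the kinetochore, from 5.23 and 8.08 to 14.5 and 23 RPKM (1.36 ± 0.22), and Nusap1, a spindle protein, from 24.3 and 34.6 to 48.1 and 87.2 RPKM (1.13 ± 0.21).

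The experiments differed in the size of these rises. Mki67, the proliferation marker, had 11.7 and 17.4 RPKM with DMSO and 19.2 and 57.3 RPKM with linezolid, so the linezolid sample of experiment 1 lay just above the DMSO sample of experiment 2 (1.17 ± 0.27, adjusted p = 0.003; 0.67 and 1.67 in the experiments). The median of the S phase list was 0.46 and 0.88 in experiments 1 and 2, and that of the G2/M list 0.84 and 1.03. Among the largest rises were also Cdca5 (1.68 ± 0.21), Prr11 (1.63 ± 0.26), Fbxo5 (1.55 ± 0.25), Sgol2a (1.54 ± 0.25), Ncapd2 (1.51 ± 0.22), Rad51ap1 (1.51 ± 0.21) and Smc4 (1.44 ± 0.15), which act in cohesion, mitotic entry, condensation or repair of chromosomes, and Cyp1a1 (1.50 ± 0.14), a target of the aryl hydrocarbon receptor.

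Regulators of G1 had no such common direction. Of 16 tested, 5 were called lower and 1 higher (3 and 4 on the median-ratio scale), against 44.3% and 14% of all genes tested (28.3% and 28.4%). Cdk6 went from 12.6 and 11.3 to 3.74 and 4.96 RPKM (-1.28 ± 0.15), and the cyclin Ccnd2 from 42.1 and 36.6 to 12.8 and 23.2 RPKM (-1.14 ± 0.27), whose call was lost without the DMSO sample of experiment 1 (-0.77, adjusted p = 0.056). The inhibitor Cdkn1a (p21) went from 115 and 128 to 60.4 and 68.8 RPKM (-0.90 ± 0.18). Cyclin D3, Ccnd3, was the member called higher, from 70.1 and 91 to 96.5 and 112 RPKM (0.37 ± 0.09).

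The linezolid effect at cycle 4 was set against that in cells of 1 division (cycle 2) and 2 divisions (cycle 3) of the same experiments. Linezolid against DMSO gave 1726 genes called higher (15.7%) and 4080 lower (37.1%) at cycle 2, and 1694 (15.4%) and 5057 (46%) at cycle 3. The effect at cycle 4 minus the mean effect at cycles 2 and 3 was called above 0 for 50 genes (0.454%) and below 0 for 116 (1.05%). These calls are fragile: against cycle 3 alone none was called (limma, 254 above 0 and 321 below 0 at an unadjusted p under 0.05), and none was called without the DMSO or without the linezolid cycle 4 sample of experiment 1 (586 and 509, and 612 and 463, unadjusted). With limma-voom on whole reads recovered from the values, 22 were above 0 and 20 below.

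Genes of G2/M and mitosis had smaller linezolid effects at cycle 4 than at the earlier cycles. Their median linezolid effect was 2.42 at cycle 2, 1.98 at cycle 3 and 0.95 at cycle 4, and all 22 had a smaller effect at cycle 4 than the mean of cycles 2 and 3, in each experiment. Of the 22, 13 were called below 0 for the difference, and none without either cycle 4 sample of experiment 1, without the block, with no filter on low values or with only the 12 linezolid and DMSO samples (limma). All 22 stayed below 0 in each of these settings, and limma-voom called 1. The median difference was -1.66 in experiment 1 and -0.79 in experiment 2. Ccnb2, a mitotic cyclin, stood at 13.6, 15.7 and 25.5 RPKM in experiment 1 and 26, 28.5 and 34 RPKM in experiment 2 at cycles 2, 3 and 4 with DMSO. With linezolid Ccnb2 stood at 129, 91.8 and 44.7 RPKM in experiment 1 and 128, 109.7 and 75.5 RPKM in experiment 2 (difference -1.49 ± 0.24, adjusted p = 0.022). The gap thus narrowed from both sides, with DMSO values rising and linezolid values falling over the cycles in both experiments. The S phase list had median effects of 1.31, 1.09 and 0.66, and 3 of 22 called below 0.

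**Figure D4:**
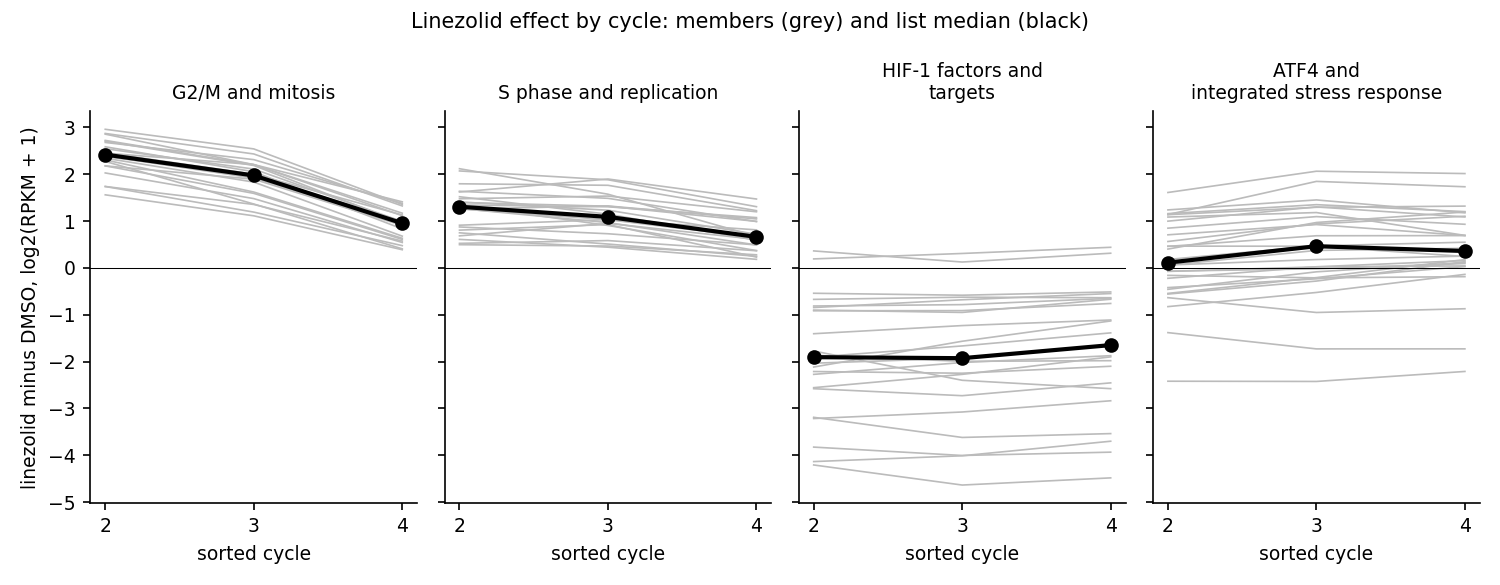
Linezolid minus DMSO in log2(RPKM + 1) at sorted cycles 2, 3 and 4 for the tested members of 4 lists (grey lines) and their median (black). The G2/M median falls from 2.42 to 0.95 and the S phase median from 1.31 to 0.66, while the HIF-1 median stays between -1.93 and -1.65.

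The falls of HIF-1 and glycolysis genes were present at every cycle. The median of the HIF-1 list was -1.91, -1.93 and -1.65 at cycles 2, 3 and 4, and that of glycolysis -2.26, -2.02 and -1.83. In glycolysis none of 22 was called for the difference (limma), and in the HIF-1 list only Vegfa was, above 0 (0.71 ± 0.15, adjusted p = 0.043). Bnip3 had effects of -4.21, -4.64 and -4.48 (difference -0.06 ± 0.22, adjusted p = 0.93), and Il17f of -3.29, -3.01 and -2.82 (difference 0.33 ± 0.20, adjusted p = 0.46). A p that misses the threshold does not show that effects were equal. The ATF4 list had medians of 0.11, 0.46 and 0.36 with no member called.

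Single genes outside these lists changed sign or size with the division class. Nr4a1 stood at 36.9, 26.1 and 21.6 RPKM in experiment 1 and 38.2, 24.8 and 19.6 RPKM in experiment 2 at cycles 2, 3 and 4 with DMSO. With linezolid it stood at 38.7, 52.4 and 64 RPKM in experiment 1 and 30.3, 36.5 and 43.7 RPKM in experiment 2, so the groups overlapped at cycle 2 and were apart at cycle 4 (difference 1.01 ± 0.16, adjusted p = 0.022). The metallothionein Mt1, which binds zinc and copper, had effects of -3.50, -1.56 and -0.68 at cycles 2, 3 and 4 (difference 1.85 ± 0.29, adjusted p = 0.022). At cycle 4 Mt1 had 102 and 151 RPKM with DMSO and 101 and 58.8 RPKM with linezolid, so the samples of experiment 1 were nearly level and those of experiment 2 were not, and on the median-ratio scale this fall was not called (-0.36, adjusted p = 0.31). Klf2, a factor of T cell quiescence and homing, went from an effect of 0.48 at cycle 2 to -1.10 at cycle 4 (difference -1.08 ± 0.16, adjusted p = 0.022). Srm, spermidine synthase, went from -1.83 to -0.71 (difference 0.81 ± 0.13, adjusted p = 0.022).

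**Figure D5:**
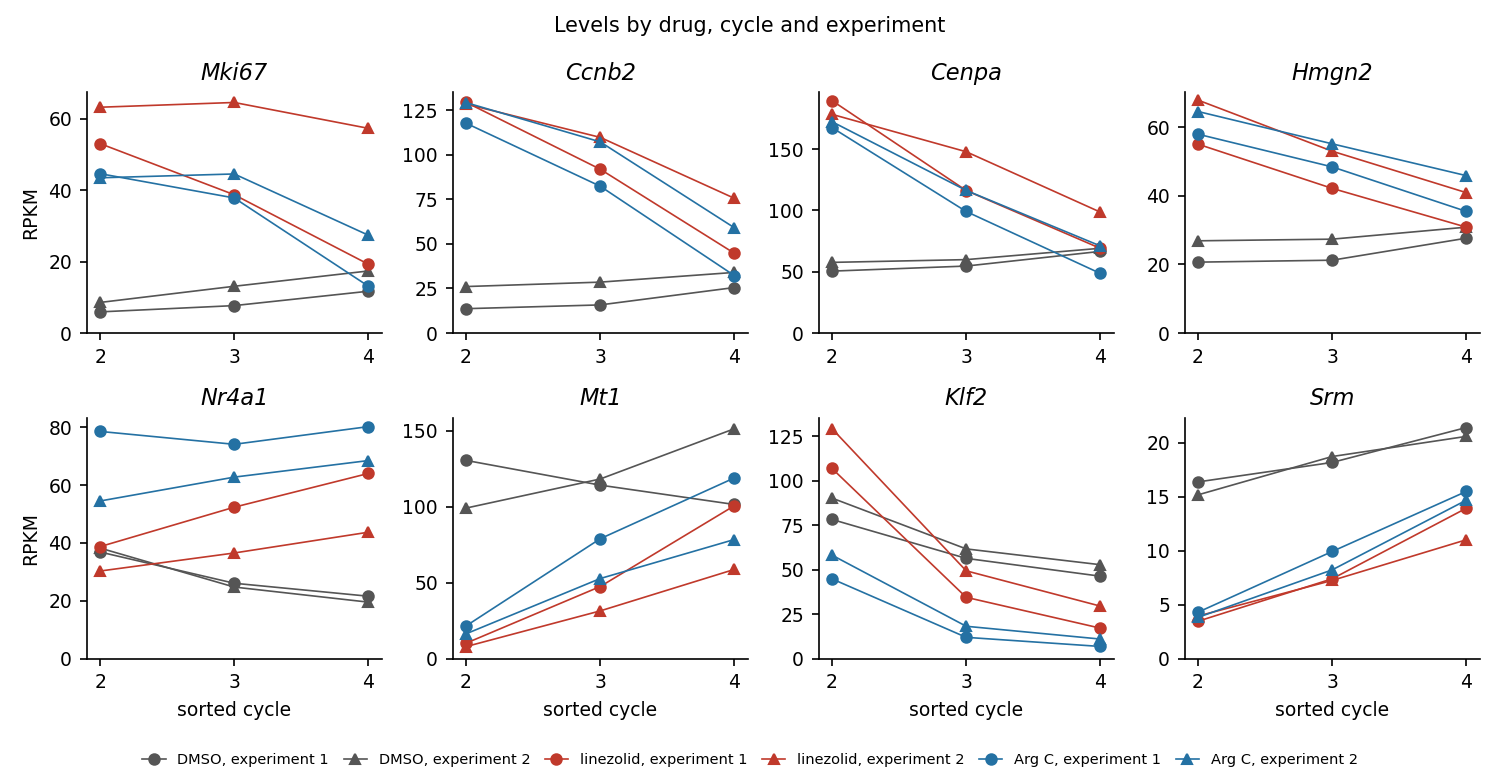
RPKM of 8 genes at sorted cycles 2, 3 and 4 with DMSO (grey), linezolid (red) and Arg C (blue), circles for experiment 1 and triangles for experiment 2. Linezolid levels of Mki67, Ccnb2, Cenpa and Hmgn2 come closer to the DMSO levels at cycle 4, and those of Nr4a1 move away from them.

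Argyrin C (Arg C), a peptide that also inhibits mitochondrial translation, was applied in the same experiments, at another dose and with the same DMSO controls, so its changes against DMSO are not independent of those of linezolid. At cycle 4 Arg C minus linezolid was called above 0 for 222 genes (2.02%) and below 0 for 3810 (34.6%), with a median difference of -0.21 over all genes tested. Genes of the cytosolic ribosome took 32.2% and 28.2% of the reads in genes with Arg C, against 27.8% and 21.2% with linezolid. The median ratios of these samples were 0.74 and 0.86 with Arg C and 0.91 and 1.12 with linezolid. The differences and counts below are in RPKM without that rescaling, and the part of scale in them was not tested. Bnip3 stood at 2 and 2.33 RPKM with Arg C and so below its linezolid level (difference -0.98 ± 0.18, limma adjusted p = 0.0023), and Egln3 at 3.48 and 4.93 RPKM (-1.07 ± 0.13, adjusted p = 0.00061). Asns stood at 42.6 and 41.5 RPKM, with a difference of -0.02 ± 0.09 (adjusted p = 0.86), and Il17f at 33.1 and 18.2 RPKM (-0.34 ± 0.16, adjusted p = 0.12). Ddit3 was lower with Arg C, at 31.4 and 34.3 RPKM (-0.44 ± 0.10, adjusted p = 0.0053), and Nr4a1 was higher, at 80.2 and 68.5 RPKM (0.48 ± 0.13, adjusted p = 0.014). The heat shock gene Hspa1b, at 4.44 and 3.7 RPKM with linezolid, stood at 174 and 54.3 RPKM with Arg C (4.28 ± 0.43, adjusted p = 0.00052). Of 22 G2/M genes, 14 were called lower with Arg C than with linezolid and none higher (limma), and the median change against DMSO was 0.27 with Arg C and 0.95 with linezolid.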

How the data were processed

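RNA of sorted mouse Th17 cells was sequenced, and 45802 genes were listed by the authors in a table with 54 value columns and no unit. The deposited values were taken as RPKM, since with 1 library total per column (8 to 12.5 M reads) they came out as whole reads for 19274 of the 19284 genes with any value (tolerance 0.0001 read). Per the submitters' processing notes, CASAVA was used and the build was GRCm38.p5. Aligner, counter, annotation and strand were not given in the sources used here, and genes that overlap or have near copies are therefore uncertain.

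Columns were matched to samples by the sample identifier in the labels. The 3 technical replicates of a sample differed by 1.04 to 1.12 times counting noise (chi-square over its degrees of freedom) and were averaged, giving 18 samples. The test was that of limma 3.58.1 (R 4.3.3, lmFit, eBayes with trend) on log2(RPKM + 1), for genes that reached 0.5 RPKM in 2 or more of the 18 samples. Each of the 9 drug and cycle groups had a coefficient, and the experiment entered as a block (8 residual degrees of freedom). P-values were adjusted by Benjamini-Hochberg over 11004 genes. The pairing by experiment comes from the series' design text. Deviations of the DMSO and linezolid cycle 4 samples of 1 experiment correlated at 0.03 over genes. Cycles of a culture were taken as independent. The fit was tested on simulated data.

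Named genes were the 15 largest rises and falls whose 4 samples averaged 5 RPKM or more and whose sign was shared by the experiments (without clone-like symbols), up to 4 genes of smallest p per list (38 lists), 10 genes each way for the difference between cycles, and Il17a, Il17f, Ifng, Foxp3, Il2ra, Mki67, Bnip3, Atf4, Ddit3, Gfm1 and Myc. Other list members named were chosen after their values were seen. The comparison, lists and rule were chosen with earlier results of these data known. Some genes the rule takes are not reported here. Alternatives changed the pseudocount, filter, scaling, trend, block and samples.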

Additional observations from a re-analysis of the deposited data

Results flagged for a closer look

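The linezolid effect at cycle 4 was compared with the mean effect at cycles 2 and 3 by the limma test of that difference. The rule took the 20 genes below for their small p among the genes called by this test. Their calls and small adjusted p-values therefore follow from the choice. Other named genes were called by it too, such as Kif2c (-1.39 ± 0.27, limma adjusted p = 0.034). The differences below are in log2(RPKM + 1), with n = 2 experiments at each drug and cycle. Below 0 were Hmgn2 (-0.87 ± 0.09), Cenpa (-1.19 ± 0.16), Cdc25b (-1.47 ± 0.21), Klf2 (-1.08 ± 0.16), Spc24 (-0.82 ± 0.13), Ckap2 (-1.48 ± 0.23), Mad2l1 (-1.05 ± 0.17), Hmgb2 (-0.93 ± 0.15), Dbf4 (-1.20 ± 0.19) and Hn1 (-0.74 ± 0.12). Cenpa, Spc24 and Mad2l1 act at the kinetochore, and Cdc25b and Dbf4 drive entry into mitosis and S phase. Above 0 were Srm (0.81 ± 0.13), Mt1 (1.85 ± 0.29), Pim2 (0.56 ± 0.09), Nr4a1 (1.01 ± 0.16), Siva1 (0.51 ± 0.08), Mt2 (1.94 ± 0.33), Ddx18 (0.60 ± 0.10), Srfbp1 (0.65 ± 0.11), Mphosph10 (0.55 ± 0.10) and Rabggtb (0.68 ± 0.12). Adjusted p-values of the 20 ranged from 0.0076 to 0.028. None of the 20 was called without the DMSO or without the linezolid cycle 4 sample of experiment 1, where no gene was called at all (limma). The linezolid sample of experiment 1 also had the larger share of reads in ribosomal-protein genes (27.8% against 21.2%). All 20 kept their call with scaling without ribosomal-protein and mitochondrial genes, 17 with median-ratio scaling and 18 with limma-voom. None kept it without the experiment as a block or with only the 12 linezolid and DMSO samples. The part of ribosomal-protein genes in these differences was not tested.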

How the results depend on the processing

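Of 3644 values of 183 named genes at cycle 4 under 20 other settings, 3516 kept their direction and side of the threshold, 98 lost and 29 gained the call, and 1 changed sign (Ddx18, 0.0028 on the median-ratio scale). Of 380 values of the 20 differences between cycles, 288 kept and 92 lost the call. Genes called higher numbered 2417 with upper-quartile scaling, 3126 with median-ratio scaling, 622 with only the 4 samples of cycle 4 and 2351 with 54 libraries kept apart and the technical replicate number as replicate block. Genes called lower numbered 3119 with median-ratio scaling and 2762 with only the 4 samples. With 1 technical replicate or 1 sample left out, 1078 to 1483 were higher and 3218 to 5082 lower, the least without the DMSO sample of experiment 1; the lone sample of a group is then assumed to vary like the others. The median change was -0.0238 with no filter and 0.00987 with median-ratio scaling. The effect at cycle 4 was above that at cycles 2 and 3 for 32 genes with median-ratio scaling, 22 with limma-voom, 226 against cycle 2 alone and 1585 with 54 libraries and the replicate block. It was below for 77 at a pseudocount of 0.1, 36 with no filter, 175 with scaling without ribosomal-protein and mitochondrial genes, 20 with limma-voom, 367 against cycle 2 alone and 2038 with the replicate block. With 1 replicate or sample left out it was above for 0 to 117 and below for 0 to 308. It was 0 in both directions against cycle 3 alone, with no replicate block (limma, 546 above and 494 below at an unadjusted p under 0.05) and with only the 12 linezolid and DMSO samples (707 and 774). The technical replicate number pairs nothing beyond the runs of 1 sample, so the replicate block takes 3 runs of a sample as independent. Depth (27.7 to 33.2 M reads) limits genes under about 1 RPKM, where the pseudocount shrinks changes.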

Other observations

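Several gene groups of the same comparison have not been described above. Their counts stand against 44.3% called lower and 14% higher over all genes tested (28.3% and 28.4% on the median-ratio scale). A count near these shares does not set a list apart from other genes. Of 11 tested genes of the interferon response, 8 were called lower and 1 higher (7 and 2 on the median-ratio scale), with a median of -1.07. The guanylate-binding protein Gbp2 went from 203 and 142 RPKM with DMSO to 15.6 and 19.7 RPKM with linezolid (-3.21 ± 0.24). Of 10 class I and class II genes, 2 were called lower and 3 higher (1 and 7). H2-Ab1, a class II chain, went from 66.5 and 97.1 to 13.8 and 11.3 RPKM (-2.59 ± 0.15), while the class I light chain B2m was called higher (0.30 ± 0.09). Of 13 cytosolic heat shock genes, 3 were called lower and 4 higher (1 and 7). Hspa1b (HSP70), which shares most of its sequence with Hspa1a, was low in DMSO cells, at 0.611 and 0.573 RPKM, and stood at 4.44 and 3.7 RPKM with linezolid (1.67 ± 0.43, limma adjusted p = 0.0059), a call lost without the DMSO sample of experiment 1 (1.31, adjusted p = 0.07).

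The same shares, 44.3% lower and 14% higher (28.3% and 28.4% on the median-ratio scale), apply to the lists that follow. Of 20 genes of cholesterol and fatty acid synthesis, 4 were called lower and 2 higher (3 and 7 on the median-ratio scale), with Elovl6, which lengthens fatty acids, at -1.48 ± 0.22. Of 13 genes of fatty acid oxidation, 8 were called lower and 2 higher (5 and 3), with the dehydrogenases Acadvl at -0.88 ± 0.08 and Acadm at -1.03 ± 0.16. Of 14 redox and glutathione genes, 6 were called lower and none higher (limma; 4 and 5 on the median-ratio scale), with glutathione reductase, Gsr, going from 23.6 and 19 to 5.72 and 7.22 RPKM (-1.58 ± 0.17). Of 13 BCL2 family genes, 4 were called lower and 2 higher (1 and 2). The proapoptotic Bbc3 (PUMA) was called higher, from 12.1 and 12.4 to 21 and 19.5 RPKM (0.68 ± 0.11), and the proapoptotic Bcl2l11 (BIM) lower, from 9.07 and 7.29 to 3.31 and 5.3 RPKM (-0.81 ± 0.23). Of 11 p53 targets, 4 were called lower and 1 higher (3 and 4), with Trp53 itself going from 24.6 and 23.1 to 13.6 and 14.1 RPKM (-0.74 ± 0.11).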
